A study of Mus musculus and Homo sapiens with 27 samples.

Results

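RNA captured on streptavidin beads from labelled MC38 cells was compared, gene by gene, with RNA captured in the same way and titled as not labelled. The members are 6 of the 27 libraries of the series: 3 Label_Enrich and 3 NonLabel_Enrich libraries of the set titled MC38 12G, with all genes of its count table that passed a low-count filter. Of 56691 features in that table, 27191 had at least 1 count in the 9 libraries of the set and 11676 were tested. MC38 is a mouse colon carcinoma line, and per the labels its cells stably carried LAP, a light-giving labelling enzyme, at the ERM. That abbreviation is taken to mean the endoplasmic reticulum (ER) membrane. For labelling, PA (10 mM; the name is not spelled out) and the luciferase substrate furimazine (50 µM) were given together over 15 to 60 min. RNA extraction with TRIzol, DNase treatment, a copper-catalysed reaction with 0.1 mM biotin azide and bead capture are described once for all samples. How the NonLabel_Enrich cells or RNA were treated is not described separately, and all 3 groups used here carry the same enzyme. A part of the labelled RNA was kept before capture (Label_Input, 3 libraries) and is set beside the captured groups below. No library holds unlabelled RNA kept before capture, so a difference in capture and a difference in the RNA content of the cells cannot be told apart.

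Messenger RNAs of secreted, membrane and lysosomal proteins are translated at the ER. In most of them a short hydrophobic stretch near the start of the protein, the signal peptide or a first membrane segment, is bound by the signal recognition particle as it leaves the ribosome and is passed to the Sec61 channel. Other membrane proteins begin with a later segment, and tail-anchored proteins, whose only segment lies at the end, are released from the ribosome before insertion. Cytosolic, nuclear and most mitochondrial proteins are made on ribosomes in the cytosol, while mitochondrial DNA encodes a few RNAs that never leave the organelle.

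The captured libraries held 13127181 to 18614808 counts. A single feature without a name in the annotation used here, ENSMUSG00000119584, took 59.3% ± 0.686 of the counts in Label_Enrich and 64.7% ± 1.97 in NonLabel_Enrich (SD, n = 3), which left 4753728 to 7727524 counts for all other features. Counts assigned to Lars2, the gene of the mitochondrial leucyl-tRNA synthetase, took a further 8.99% ± 0.16 and 9.01% ± 1.03. Which part of the gene they come from was not examined, so they are not read as the level of its mRNA. The cell type was checked against markers: of 14 colon epithelial markers 4 had no count in any of the 9 libraries, among them Epcam and Cdx2, and the summed level of all 14 was 1.08 to 1.52 CPM (counts scaled to library size) in the captured libraries. Of 9 mesenchymal markers 8 were tested, and their summed level was 1240 to 1280 CPM in Label_Enrich and 1080 to 1120 CPM in NonLabel_Enrich. Of 7 blood markers 5 had no count. The libraries thus held very little RNA of colon epithelial markers, and held collagen, fibronectin and vimentin RNA.

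Levels are CPM scaled by TMM factors, which set the bulk of the tested genes as equal, so higher and lower are relative. Without such factors the median log2 fold change of all genes moves by 0.317 towards Label_Enrich, and the fold changes below are read relative to that median. At a Benjamini-Hochberg adjusted p under 0.05 from the edgeR quasi-likelihood test, 2341 genes (20.0% of those tested) were called, 1217 higher in Label_Enrich (10.4%) and 1124 lower (9.63%). The differences were small. The median log2 fold change was 0.33 among genes called higher and -0.35 among genes called lower, and the 5th and 95th percentiles of all tested genes were -0.49 and 0.45. At least a 2-fold difference was reached by 15 called genes upward (0.128% of those tested) and 96 downward (0.822%). Large falls thus outnumbered large rises.

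The 12 largest rises, among called genes with at least 10 CPM, a conventional symbol and groups that do not overlap, were those of Hist2h2ac, Mogs, Cdkn2c, Col5a2, Atp5k, Esyt1, Rnf145, Col4a5, Col3a1, Lamb1, Pigk and Acsl3. Of these, Col5a2, Col4a5 and Col3a1 encode collagen chains, Lamb1 a laminin chain, and Mogs the ER enzyme that removes the first glucose from new N-glycans. Pigk is a subunit of the enzyme that attaches GPI anchors, Esyt1 tethers the ER to the plasma membrane, Rnf145 is an ER ubiquitin ligase and Acsl3 activates fatty acids at the ER and lipid droplets. Cdkn2c, an inhibitor of cell-cycle kinases, Hist2h2ac, a histone, and Atp5k, a subunit of the mitochondrial ATP synthase, are not proteins of the secretory pathway. The first bases of the coding sequences of 5 of these genes are shown, because a class of sequence that 4 of them carry is described next. They were read from GENCODE M21 transcripts, 120 bases from the start codon, 5′ to 3′, and the capitals mark the 36 bases that encode the most hydrophobic run of 12 residues among the first 40.
Lamb1: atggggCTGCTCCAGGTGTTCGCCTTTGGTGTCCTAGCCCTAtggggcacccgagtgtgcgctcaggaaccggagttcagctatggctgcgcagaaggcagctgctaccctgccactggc
Col5a2: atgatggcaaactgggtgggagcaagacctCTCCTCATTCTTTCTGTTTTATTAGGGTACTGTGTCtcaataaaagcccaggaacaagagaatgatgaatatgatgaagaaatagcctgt
Pigk: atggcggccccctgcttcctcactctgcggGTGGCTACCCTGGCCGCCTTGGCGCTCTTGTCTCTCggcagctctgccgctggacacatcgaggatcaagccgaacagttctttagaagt
Acsl3: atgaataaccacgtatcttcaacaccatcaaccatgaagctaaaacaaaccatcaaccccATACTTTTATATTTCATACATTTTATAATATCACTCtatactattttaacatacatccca
Cdkn2c: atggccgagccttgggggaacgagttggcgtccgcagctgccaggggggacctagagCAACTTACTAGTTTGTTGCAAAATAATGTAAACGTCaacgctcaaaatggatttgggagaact

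On the Kyte-Doolittle scale, on which hydrophobic residues score above 0, the marked run averaged 2.41 in Lamb1, 2.66 in Col5a2, 2.41 in Pigk and 2.48 in Acsl3. It averaged 0.07 in Cdkn2c. A run of at least 2.0 was taken as a hydrophobic start. Of the other largest rises Col4a5 passed this threshold, at 2.4. Mogs (-0.43), Esyt1 (0.2), Hist2h2ac (0.41), Atp5k (1.32), Rnf145 (1.63) and Col3a1 (1.99) did not, so the starts shown do not stand for all 12 genes. The proteins of 10540 tested genes were classed in this way, and also by whether a window of 19 residues beyond residue 40 averaged at least 1.8, as the membrane segments of integral membrane proteins do.

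Genes whose protein has a hydrophobic start were shifted towards Label_Enrich. The 736 genes with a start and no later segment had a median log2 fold change of 0.18, and 31.9% of them were called higher against 3.26% lower. The 709 genes with both had a median of 0.18, with 32.3% called higher and 2.40% lower. Genes with a later segment alone came between: for 1260 such genes the median was 0.050, with 15.6% higher and 5.79% lower. The 7835 genes with neither had a median of -0.023, and 6.64% were called higher and 11.2% lower. This class is not a list of proteins made in the cytosol. Col3a1 (1.99), Grn (1.97), Col6a1 (1.94) and Ccn1 (1.82), all named below as matrix, lysosomal or secreted, fell in it with starts under the threshold. Over all classed genes these shares were 11.2% and 9.41%.

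Among proteins without a hydrophobic start, the number of later segments went with the size of the shift. With 1 segment (743 genes) the median log2 fold change was 0.017 and 12.2% were called higher. With 2 to 4 segments (320 genes) it was 0.074 and 16.6%, and with 5 or more (197 genes) it was 0.15 and 26.9%. Read from the side of the calls, 661 of the 1181 classed genes called higher (56.0%) encode a hydrophobic start or a later segment, against 1930 of 8367 genes not called (23.1%) and 114 of 992 called lower (11.5%). Just inside the threshold, genes whose start averaged 2.0 to 2.1, with no later segment, had a median of 0.091 with 15.3% called higher (98 genes). Just outside it, those at 1.9 to 2.0 had a lower median of 0.011 but a larger share called higher, 20.9% (86 genes). With the thresholds lowered to 1.8 and 1.6 the median of genes with a start and no later segment was 0.13.

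**Figure D1:**
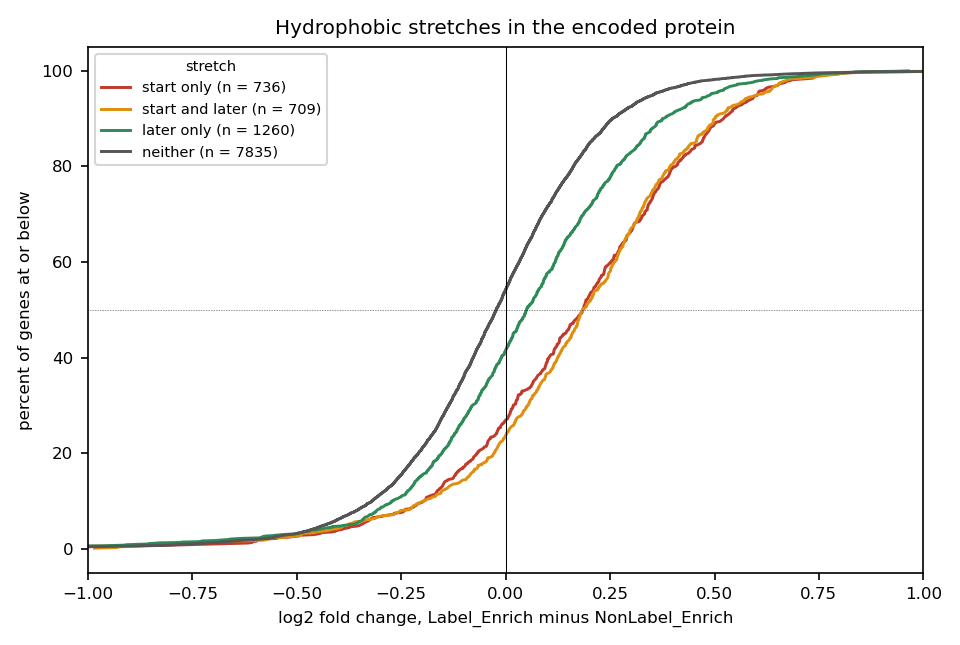
Cumulative share of genes (vertical axis, percent) at or below each log2 fold change of Label_Enrich minus NonLabel_Enrich (horizontal axis), in 4 classes by hydrophobic stretches in the encoded protein. The lines of the 736 and 709 genes with a hydrophobic start lie furthest to the right, that of the 1260 genes with a later segment alone lies between, and that of the 7835 genes with neither lies furthest to the left.

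Transcript length moved with the fold change as well. Among genes with neither stretch, the median log2 fold change was 0.051 in the shortest quintile (up to 1776 bases) and -0.072 in the longest (5027 bases and more), and the share called lower was 4.2% in the first and 19.8% in the last. Among genes with a hydrophobic start or a later segment the median was 0.13 in the shortest and 0.11 in the longest quintile, and 22.4% and 25.6% were called higher. In each of the 5 quintiles the median of the genes with a stretch was above that of the genes with neither.

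**Figure D2:**
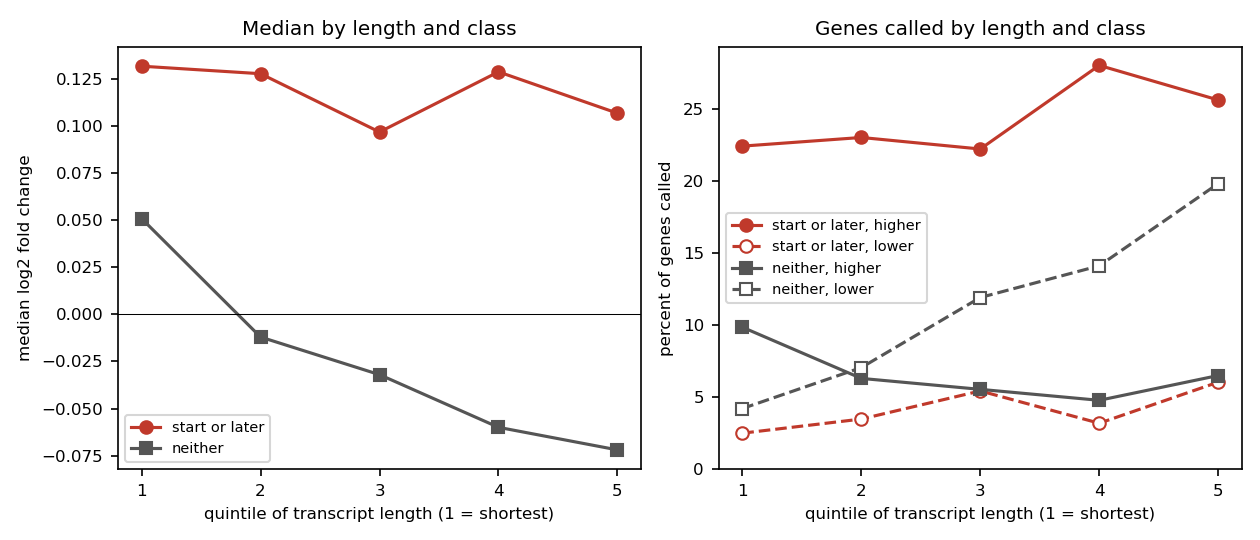
Left, the median log2 fold change, and right, the percent of genes called higher (solid) or lower (dashed), in quintiles of transcript length for genes whose protein has a hydrophobic start or later segment and for genes with neither. The share called lower among genes with neither goes from 4.2% to 19.8% along the quintiles.

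RNAs of the extracellular matrix were higher in labelled capture. Of 12 tested fibrillar and other interstitial collagens 9 were called higher and 0 lower, with a median log2 fold change of 0.58, where the median of all genes was 0.002. Col3a1 stood at 321, 314 and 311 CPM in the Label_Enrich libraries and at 195, 192 and 189 CPM in the NonLabel_Enrich libraries. The groups lay far apart beside the spread within each, where the rule for the largest rises had required groups that do not overlap. The log2 fold change was 0.71 ± 0.043 (SE, edgeR adjusted p = 2.79e-22). Col6a1, a chain of the beaded-filament collagen, was at 221, 224 and 223 CPM against 149, 145 and 135 CPM. Col5a3, the most abundant interstitial collagen that was not called, was a low gene at 3.13, 3.39 and 3.25 CPM against 2.11, 2.81 and 2.06 CPM.

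Basement membrane components, which form the sheet under epithelia and around vessels, were called higher for 9 of 12 tested, with a median of 0.54. Col4a1 and Col4a2, the chains of the common type IV collagen, rose by 0.67 ± 0.054 and 0.57 ± 0.050, and the laminin chains Lamb1 and Lamc1 by 0.70 ± 0.050 and 0.51 ± 0.045. The enzymes and the chaperone that modify collagen in the ER followed the chains, with 16 of 21 called higher, 0 lower and a median of 0.40. Serpinh1, the collagen chaperone, was at 334, 318 and 320 CPM against 251, 239 and 238 CPM. Plod1 and Plod3, lysyl hydroxylases, rose by 0.56 ± 0.061 and 0.52 ± 0.062.

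The ER's own folding machinery was higher too. Of 21 protein disulfide isomerases, which form and shuffle disulfide bonds, 18 were called higher and 0 lower (median 0.47). Pdia6 stood at 131, 132 and 133 CPM against 88.2, 85.5 and 83.1 CPM. In the calnexin cycle and glycan trimming, the quality check that reads N-glycans, 11 of 16 were called higher and 0 lower (median 0.40), with Mogs at 29.0, 27.9 and 26.5 CPM against 15.5, 14.5 and 16.9 CPM. Of 15 members of the BiP and GRP94 system, 11 were higher and 0 lower (median 0.35). Hsp90b1, the ER form of HSP90, was at 137, 136 and 141 CPM against 84.0, 95.3 and 92.4 CPM, and Hspa5, which encodes BiP, at 295, 287 and 293 CPM against 212, 211 and 204 CPM. Neither gene's groups overlapped, which the choice of members by lowest p favours.

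Genes of the machinery at the channel were also called higher. Of 16 subunits of oligosaccharyltransferase and signal peptidase, which add N-glycans and remove signal peptides, 11 were called higher (median 0.36); Stt3a, a catalytic subunit, was at 70.2, 71.5 and 70.1 CPM against 45.6, 48.6 and 49.2 CPM. Of 13 Sec61 and TRAP genes 8 were higher (median 0.27), with Sec61a1, the channel itself, at 60.0, 61.7 and 63.1 CPM against 51.2, 48.9 and 48.6 CPM. Of 9 tested subunits of the ER membrane protein complex, an insertase, Emc1, Emc7 and Emc10 were called higher (median of the 9, 0.21), and the call of Emc10 ends without 1 captured library (edgeR adjusted p up to 0.102). Among 10 genes of the signal recognition particle and its receptor, the receptor subunits Srpr and Srprb were called higher, the second not in each fit without 1 library (edgeR adjusted p up to 0.0937). In ER-associated degradation, which returns misfolded proteins to the cytosol, the median over 21 genes was 0.051. Of these, 5 were called higher (23.8%) and 1 lower (4.76%). The ubiquitin ligase March6 and the ligase partner Sel1l rose by 0.38 ± 0.067 and 0.42 ± 0.072. The ligase Rnf185, the 1 called lower, fell by 0.45 ± 0.12.

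**Figure D3:**
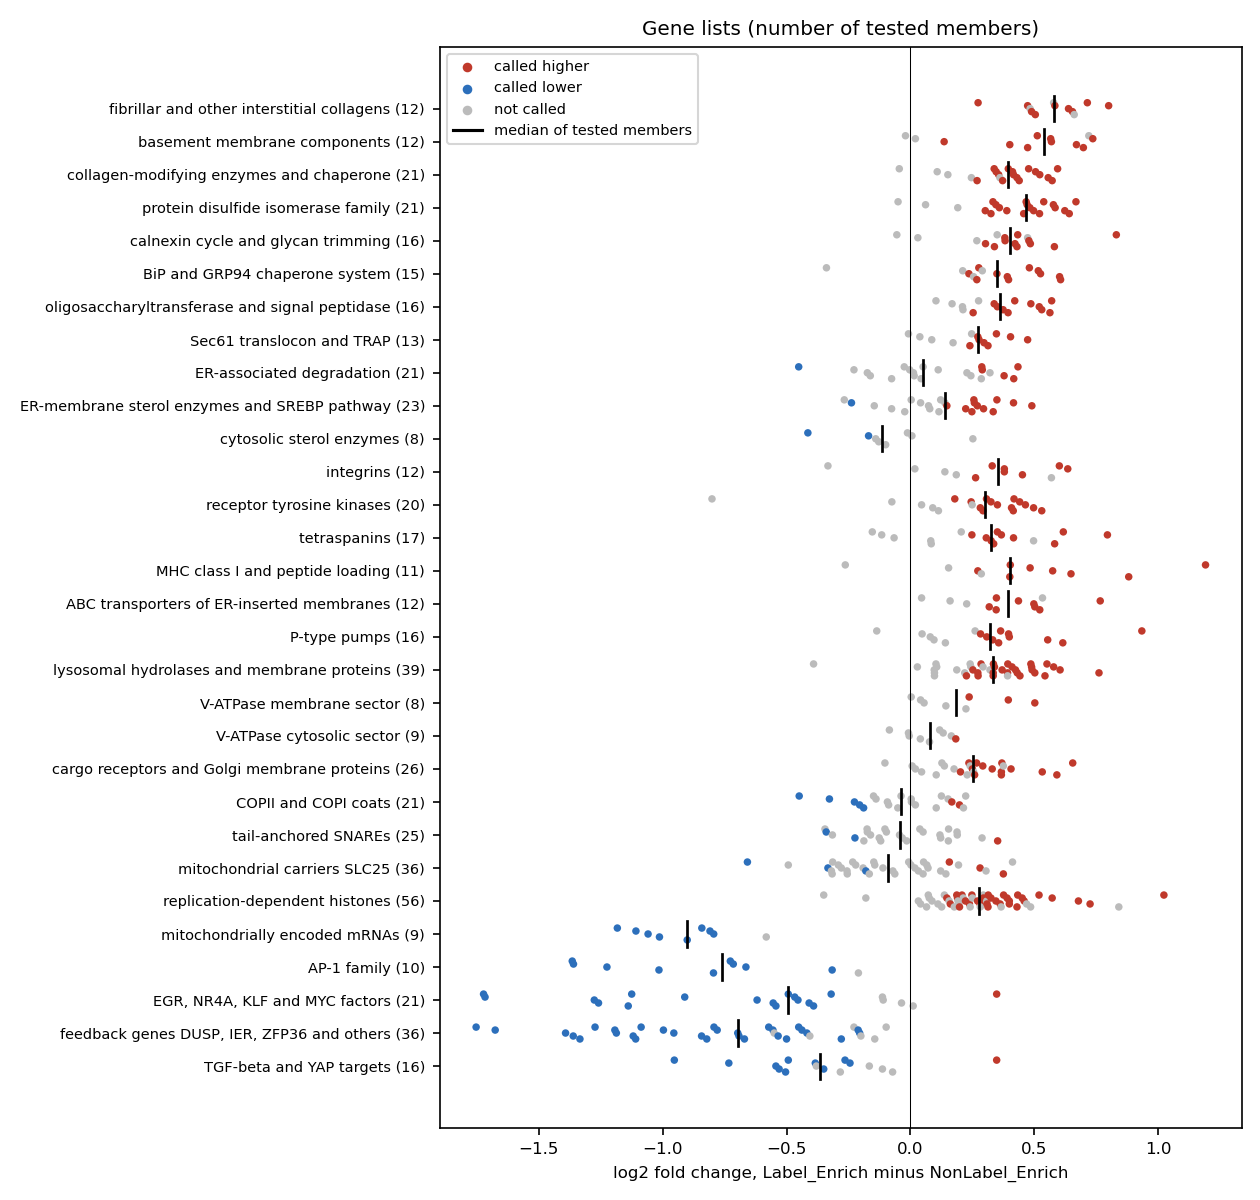
Log2 fold change of Label_Enrich minus NonLabel_Enrich (horizontal axis) of each tested member of the gene lists, with the number of tested members in brackets. Points are genes (red called higher, blue called lower, grey not called) and the black bar is the list's median. The medians of matrix, ER folding, surface and lysosomal lists lie to the right of 0, up to 0.58 for interstitial collagens, and those of early-response and mitochondrially encoded lists to the left, down to -0.90.

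Surface and lysosomal proteins, which pass through the ER on their way, were higher in the same libraries. Integrins, the receptors that bind the matrix, were called higher for 7 of 12 tested, and Itgb1, the most widely shared beta chain, stood at 248, 254 and 260 CPM against 165, 160 and 166 CPM. Of 20 receptor tyrosine kinases 14 were called higher and 0 lower, with a median of 0.30. Axl was at 211, 213 and 218 CPM against 157, 162 and 153 CPM, and Ptk7, a kinase-dead member, at 36.0, 35.6 and 36.3 CPM against 25.1, 25.3 and 24.4 CPM. Igf1r, the insulin-like growth factor receptor, did not pass the test at 20.1, 21.3 and 20.7 CPM against 20.8, 21.8 and 17.5 CPM. Tetraspanins, which span the membrane several times, were called higher for 10 of 17 tested (median 0.33), and Cd9 stood at 60.9, 63.4 and 61.4 CPM against 39.4, 40.9 and 40.8 CPM.

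Antigen presentation by MHC class I was among these groups, with 8 of 11 genes called higher, 0 lower and a median of 0.40. H2-K1 and H2-D1, the classical heavy chains, were at 143, 134 and 140.0 CPM and at 223, 210.0 and 218 CPM in Label_Enrich. In NonLabel_Enrich they were at 98.0, 88.7 and 93.6 CPM and at 168, 169 and 157 CPM. The heavy chains have near-identical copies, so the split of reads among them is uncertain. Tap1 and Tapbp, which load peptides in the ER, rose by 0.88 ± 0.13 and 0.40 ± 0.064.

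Pumps and transporters of the surface and inner membranes gave a graded picture. Of 12 ABC transporters 8 were called higher (median 0.39) and of 16 P-type pumps 10 (median 0.32), with 0 lower in either list. Atp7a, a copper pump, was at 5.89, 6.32 and 5.82 CPM against 2.8, 3.32 and 3.30 CPM. Of 134 solute carriers that are inserted at the ER, 29 were called higher and 5 lower (median 0.12). Slc16a3, a lactate exporter, was at 51.5, 50.5 and 50.5 CPM against 37.8, 35.5 and 35.8 CPM. Of 143 genes named Tmem for a transmembrane protein, 26 were called higher and 4 lower (median 0.11).

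Lysosomal hydrolases and membrane proteins were called higher for 25 of 39 tested and lower for 0, with a median of 0.33. Ctsl, a cathepsin, stood at 267, 272 and 258 CPM against 179, 177 and 177 CPM, and Lgmn, the legumain protease, at 34.0, 33.7 and 31.2 CPM against 22.6, 21 and 21.6 CPM. Both groups of libraries were tight and did not overlap, which the choice of members by lowest p favours. Grn, progranulin, was the most abundant member not called, at 108, 109 and 112 CPM against 99, 100.0 and 107 CPM.

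Several pairs of lists share a pathway but differ in where the protein is made. In the proton pump of lysosomes, 3 of 8 genes of the membrane sector and its accessory proteins were called higher (median 0.18), and these were Atp6ap1, Atp6ap2 and Tcirg1, the last of which was not called in the shallower 3G counts (edgeR adjusted p = 0.0626). In its cytosolic sector 1 of 9 was called, Atp6v1h (median 0.077), and that call ends without any 1 captured library (edgeR adjusted p up to 0.119). Of 23 ER-membrane sterol enzymes and SREBP regulators 11 were higher and 1 lower (median 0.14), while of 8 cytosolic sterol enzymes 0 were higher and Fdps and Mvd were lower (median -0.11). Of 26 cargo receptors and Golgi membrane proteins 14 were higher (median 0.25), while of 21 genes of the cytosolic COPII and COPI coats 2 were higher and 5 lower (median -0.038, and 0.014 in the 3G counts). The scaffold of ER exit sites, Sec16a, fell by 0.45 ± 0.080 and the outer coat gene Sec31a by 0.20 ± 0.051. The 36 carriers of the mitochondrial inner membrane, which belong to the solute carriers by family but not by place, had 3 calls in each direction and a median of -0.091, which was -0.027 without Label_Enrich replicate 3 and -0.002 without NonLabel_Enrich replicate 3. The largest of these was a fall of 0.66 ± 0.14 in Slc25a25, a calcium-regulated carrier. The 25 tail-anchored SNAREs, membrane proteins that reach the ER after translation, had Vti1b called higher, Gosr2 and Vti1a lower, and a median of -0.044, which was -0.10 without NonLabel_Enrich replicate 3. The calls of Fdps, Mvd, Vti1b, Gosr2 and Vti1a each end without at least 1 captured library, with highest adjusted p values of 0.0636, 0.219, 0.0866, 0.127 and 0.114 from the edgeR quasi-likelihood test. Over all tested genes 10.4% were called higher and 9.63% lower. The share called higher in the cytosolic pump sector (11.1%) and in the coats (9.52%) was about that. So were both shares of the mitochondrial carriers, 8.33% each. The SNAREs had 4.0% higher and 8.0% lower, and the coats 23.8% lower. No test of the difference between these lists was made.

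Some abundant RNAs of secretory proteins showed no detectable difference. Timp2, a secreted protease inhibitor, was at 182, 189 and 185 CPM against 187, 182 and 183 CPM, with a log2 fold change of 0.011 ± 0.043. Timp1, its relative, was at 22, 20.0 and 20.2 CPM against 15.8, 14.7 and 15.1 CPM and was called higher by 0.45 ± 0.071. Ergic1 and Tspan9, with hydrophobic starts and later segments, had log2 fold changes of 0.020 ± 0.057 and 0.084 ± 0.062. A hydrophobic start was therefore not accompanied by a rise in each abundant gene.

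Some groups outside the secretory pathway were also higher. Replication-dependent histones were called higher for 31 of 56 tested and lower for 0 (median 0.28), and Hist2h2ac stood at 27.6, 26.0 and 25.3 CPM against 14.4, 10.8 and 13.7 CPM. Histone genes have near-identical copies, and their counts are uncertain. Of 36 proteasome subunits 16 were higher and 0 lower (median 0.16). Of 85 cytosolic ribosomal proteins 37 were higher and 2 lower (median 0.14); Rps25 was at 47.4, 47.9 and 48.2 CPM against 38.7, 34.6 and 36.2 CPM. Mitotic genes were higher for 9 of 26, with Top2a, which untangles chromosomes, at 172, 178 and 184 CPM against 142, 154 and 143 CPM. Over all tested genes 10.4% were called higher and 9.63% lower. Median transcript lengths were 527 bases for histones, 871 for ribosomal proteins and 1540.5 for proteasome subunits. Genes with neither stretch in the shortest quintile had a median of 0.051, with 9.84% called higher and 4.2% lower. The part of length in these lists was not tested. Actb, beta actin, did not pass the test, at 986, 984 and 992 CPM against 1070, 1030 and 1060 CPM.

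Many of the larger falls were those of early-response genes, whose RNAs appear within minutes of a stimulus and decay quickly. By the rule used for the rises, the 12 largest falls were those of Egr2, mt-Rnr2, Dusp1, Fos, Ier2, Atf3, Zfp36, Hmox1, Egr1, Nr4a1, Chac1 and Trib1. As a description only, the sequence before the start site is shown for 4 early-response genes. They are those with the largest fall whose RefSeq promoter holds a cyclic AMP response element or a CArG box. The CArG box is the binding letters of serum response factor. A promoter was taken as 250 bases before to 50 after the start (build GRCm38.p6). The 250 bases before the start are given 5′ to 3′ on the gene's strand, and the capitals mark the element.
Egr2 chr10:67537316-67537565, plus strand: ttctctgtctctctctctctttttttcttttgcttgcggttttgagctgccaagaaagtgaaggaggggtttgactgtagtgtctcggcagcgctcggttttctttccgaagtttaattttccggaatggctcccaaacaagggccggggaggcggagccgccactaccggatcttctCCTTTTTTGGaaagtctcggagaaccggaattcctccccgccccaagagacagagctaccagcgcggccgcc
Btg2 chr1:134079156-134079405, minus strand: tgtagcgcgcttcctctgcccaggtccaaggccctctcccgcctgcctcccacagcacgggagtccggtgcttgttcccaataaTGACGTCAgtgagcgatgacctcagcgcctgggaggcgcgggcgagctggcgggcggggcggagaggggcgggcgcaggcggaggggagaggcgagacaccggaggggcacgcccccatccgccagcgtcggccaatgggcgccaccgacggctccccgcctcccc
Dusp1 chr17:26508473-26508722, minus strand: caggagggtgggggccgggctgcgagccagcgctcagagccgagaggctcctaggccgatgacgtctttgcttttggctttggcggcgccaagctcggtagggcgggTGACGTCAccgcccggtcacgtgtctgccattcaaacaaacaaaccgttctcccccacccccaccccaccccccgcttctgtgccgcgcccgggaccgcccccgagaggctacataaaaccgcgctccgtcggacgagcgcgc
Zfp36 chr7:28379229-28379478, minus strand: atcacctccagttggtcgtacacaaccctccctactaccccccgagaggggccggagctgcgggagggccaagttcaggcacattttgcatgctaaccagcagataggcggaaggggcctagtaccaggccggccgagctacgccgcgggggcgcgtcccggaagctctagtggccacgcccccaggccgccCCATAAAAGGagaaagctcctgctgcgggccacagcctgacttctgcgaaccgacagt

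The element TGACGTCA, searched on both strands, was in the promoters of 6 of the 45 early-response genes called lower that had a promoter entry, of 62 in all. This is 13.3%, where 3.74% of the 8608 tested genes with an entry and 2.03% of all 27025 genes with an entry hold it. A gene counts if any of its promoters holds the element, so genes with more entries have more openings for a match. The CArG box was in 4 of the 45 (8.89%), in 1.48% of the tested genes and in 1.81% of all genes with an entry. The AP-1 site TGANTCA was in 3 of the 45 (6.67%), in 5.90% of the tested genes and in 8.97% of all genes with an entry. The letters of none of these motifs contain those of another, and a match only describes the letters in the window. The 45 genes come from lists of early-response genes, and the shares among list members not called lower were not taken. The shares therefore describe the listed genes and are not read as tied to the fall. Egr2 has 5 promoter entries, and the first of those with most matches is shown.

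Of the 10 tested AP-1 genes 9 were called lower and 0 higher, with a median log2 fold change of -0.76. Fos stood at 6.53, 6.49 and 6.90 CPM in Label_Enrich and at 16.4, 18 and 16.8 CPM in NonLabel_Enrich, a log2 fold change of -1.36 ± 0.088 (edgeR adjusted p = 1.14e-20). Junb was at 32.6, 32.3 and 32.1 CPM against 68.0, 63.7 and 64.5 CPM, and Atf3, a stress-induced partner, at 8.96, 9.30 and 10.7 CPM against 24.0, 25.8 and 24.3 CPM. In each of these genes the highest labelled library was below the lowest unlabelled one, which the rule for the largest falls required of Fos and Atf3. Jund, the AP-1 gene that was not called, was at 8.79, 6.70 and 8.48 CPM against 8.96, 9.67 and 9.21 CPM.

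Among 21 EGR, NR4A, KLF, ID and MYC factors 16 were called lower and Id1 higher, with a median of -0.49. Egr1 stood at 70.4, 67.4 and 68.8 CPM against 167, 170.0 and 163 CPM, and Egr2 at 4.88, 5.86 and 4.96 CPM against 18.2, 17.5 and 15.9 CPM. Nr4a1, an orphan nuclear receptor, was at 18.9, 18.5 and 19.9 CPM against 42.7, 46.4 and 47.8 CPM, and Myc at 24.0, 22.4 and 23.9 CPM against 51.5, 53.5 and 50.0 CPM. None of these genes' groups overlapped, which the rule for the largest falls required of Egr1, Egr2 and Nr4a1. Id1 was named after its values were seen.

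Feedback genes, which shut down the signals that induce them, were lower in nearly the whole list: of 36 tested, 30 were called lower and 0 higher, with a median of -0.69. Dusp1, a phosphatase of MAP kinases, stood at 34.9, 32.6 and 34.7 CPM against 85.7, 90.7 and 91.8 CPM. Zfp36, which binds AU-rich elements and hastens mRNA decay, was at 7.51, 8.25 and 10.1 CPM against 21.6, 21.6 and 21.5 CPM. Ier2, a nuclear early-response protein, was at 30.9, 28.4 and 29.1 CPM against 78.8, 74.0 and 74.9 CPM. Btg2, an antiproliferative gene also counted among p53 targets, was at 3.33, 2.64 and 3.34 CPM against 9.98, 9.33 and 10.6 CPM, although its protein starts with a run that averages 2.19.

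Early-response genes whose products are secreted or at the surface lay mostly below 0. Of 17 tested 7 were called lower and 2 higher, and the median was -0.36. A log2 fold change above 0 was seen in 2 of the 17. Ccn1, a matrix-bound signalling protein, was at 138, 140.0 and 140.0 CPM against 277, 270.0 and 263 CPM. Hbegf, a membrane-anchored growth factor, and Ptgs2, the inducible cyclooxygenase of the ER membrane, both have hydrophobic starts and fell by 0.73 ± 0.12 and 0.60 ± 0.064.

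Further response lists that share some of these genes were lower in part. Of 16 TGF-beta and YAP targets 10 were called lower and Id1 higher (median -0.37), with Smad7, the inhibitor of the pathway, at 20.1, 19.3 and 18.6 CPM against 31.2, 31.8 and 33.7 CPM. Of 16 p53 targets 6 were lower and 0 higher (median -0.12), and Cdkn1a, which encodes p21, was at 9.16, 8.50 and 9.33 CPM against 13.5, 15.1 and 13.6 CPM. Of 27 ATF4 and integrated stress response targets 7 were lower and 3 higher (median -0.12, and -0.065 without Label_Enrich replicate 3). Chac1, a glutathione-degrading enzyme, was at 15.1, 15.2 and 16.1 CPM against 36.9, 33.7 and 35.8 CPM. Of 24 NRF2 and ferritin genes 7 were lower and 2 higher (median -0.058). Hmox1, heme oxygenase, was at 17, 17.4 and 17.3 CPM against 41.3, 42.3 and 41.9 CPM. In these lists most of the tested members did not pass the test, apart from the TGF-beta and YAP targets. Other response lists were mixed. Of 22 NF-kB targets 5 were higher and 3 lower (median -0.081), and of 14 hypoxia targets 1 and 3 (median 0.024). Of 12 interferon-stimulated genes 0 were called (median 0.097). Of 7 XBP1 and ATF6 genes 1 was higher and 0 lower (median 0.13), and of 7 metallothionein and metal transport genes 2 and 1 (median 0.16). Over all tested genes 10.4% were called higher and 9.63% lower. The shares called lower were 37.5% for p53, 25.9% for ATF4 and 29.2% for NRF2 genes. The NF-kB list had 22.7% higher and 13.6% lower, and the hypoxia list 7.14% and 21.4%. In the lists of 7 genes a single call moves the share widely, so those shares are not read.

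The cytosolic heat shock genes were divided. Of 19 tested 5 were called lower and 4 higher. The inducible Hspa1b was at 30.6, 29.6 and 31.2 CPM against 55.9, 52.1 and 50.0 CPM, and Dnajb1, its co-chaperone, at 38.8, 40.1 and 38.1 CPM against 64.9, 67.3 and 68.7 CPM. The constitutive Hspa8 was higher, at 660, 683 and 693 CPM against 576, 548 and 577 CPM. Hspa1b has a near-identical neighbour, and its count is uncertain.

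**Figure D4:**
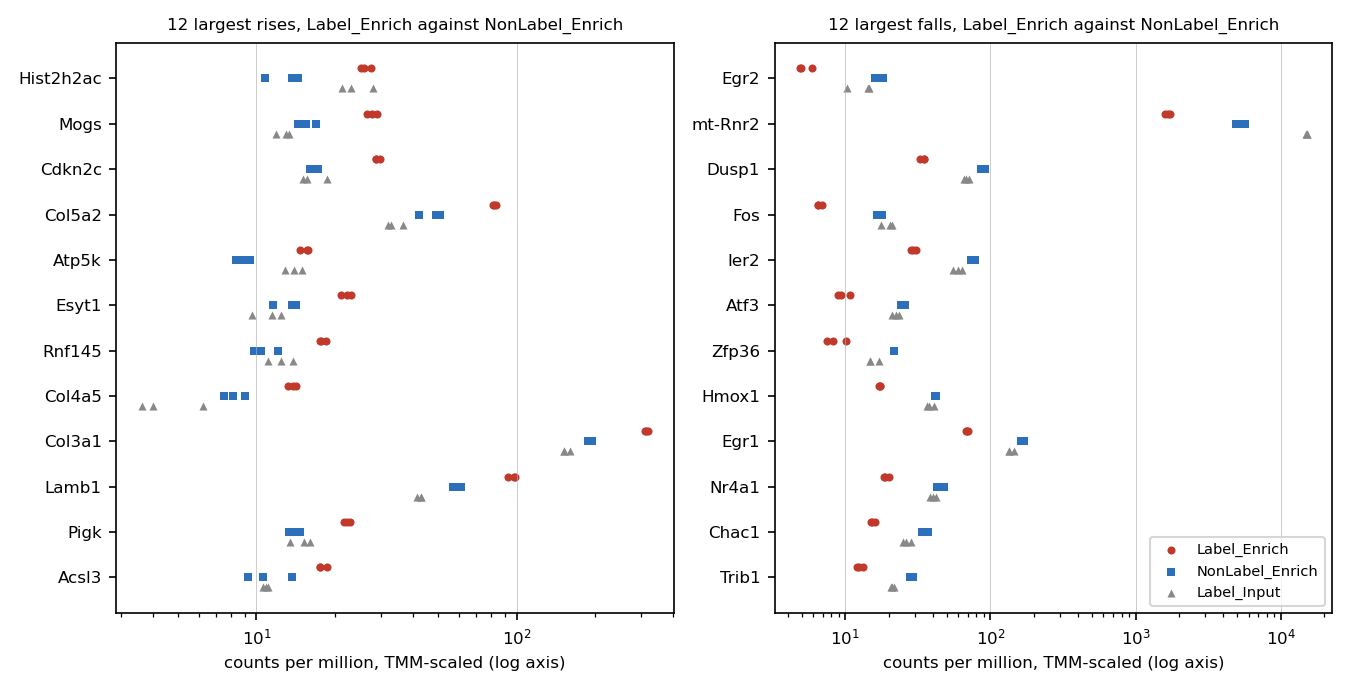
Level of the 12 genes with the largest rise (left) and the 12 with the largest fall (right) in each library, in CPM on a log axis. Red circles are the 3 Label_Enrich, blue squares the 3 NonLabel_Enrich and grey triangles the 3 Label_Input libraries. The red and blue points do not overlap for any of these genes, which the rule that chose them required, and the falls span a wider range of folds than the rises.

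The RNAs that mitochondrial DNA encodes were lower. Of 9 tested mitochondrially encoded mRNAs 8 were called lower and 0 higher (median -0.90); the exception, mt-Co3, was below 1.1 CPM in each captured library. mt-Co1, a subunit of cytochrome oxidase, stood at 362, 356 and 376 CPM against 791, 750.0 and 942 CPM. The large ribosomal RNA mt-Rnr2 fell by 1.64 ± 0.038 on the log2 scale, and mt-Rnr1, the small one, was lower too. Mitochondrially encoded features together took 0.594% to 0.622% of the counts in Label_Enrich, 1.2% to 1.31% in NonLabel_Enrich and 1.44% to 1.48% in Label_Input.

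Noncoding RNAs were mixed. Of 20 small nucleolar and Cajal body RNAs in the list 9 were called lower and 0 higher (median -0.33, and -0.56 without Label_Enrich replicate 1), and Rny1, a small cytoplasmic RNA bound by the Ro protein, fell by 0.75 ± 0.059. Of 20 nuclear and snoRNA-host long noncoding RNAs 3 were called in each direction (median -0.004). By annotated type, 20 of 115 antisense genes (17.4%) were called lower, against 9.48% of protein-coding genes, while the share of the 133 long intergenic noncoding genes, 9.77%, was about that background. The sources used here do not say whether reads were counted by strand, so antisense genes cannot be told apart from the genes they overlap. Neat1, which builds nuclear paraspeckles, stood at 115, 110.0 and 117 CPM against 169, 159 and 155 CPM, while Malat1, another nuclear RNA, was higher at 797, 844 and 872 CPM against 694, 680.0 and 715 CPM.

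AU-rich elements, which mark unstable mRNAs, were counted as the nonamer TTATTTATT in the annotated 3′ untranslated region. The share of genes called lower was 9.04% for 9731 genes with 0 copies, 13.1% for 633 genes with 1 copy and 19.5% for 118 genes with 2. It was 10.3% for 58 genes with 3 or more, so the share did not keep growing. Genes with copies also have longer transcripts, at a median of 4452 bases with 1 copy against 2991 with 0, and the part of length was not tested.

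Label_Input gives a common point beside which both captured groups can be read, and since both comparisons share those libraries only their values are set out. Interstitial collagens had a median log2 fold change of 1.02 in Label_Enrich and 0.38 in NonLabel_Enrich, each minus Label_Input, and receptor tyrosine kinases 0.61 and 0.34. Both captured groups thus held more matrix and receptor RNA, relative to other genes, than RNA kept before capture. For lysosomal genes the values were 0.27 and -0.13, and for oligosaccharyltransferase and signal peptidase 0.20 and -0.20, so these lay on opposite sides of the input. Transcript length moved with both comparisons. From the shortest to the longest quintile of classed genes the median went from -0.25 to 0.13 in Label_Enrich. In NonLabel_Enrich it went from -0.31 to 0.16. Median lengths were 6024.5 bases for interstitial collagens and 4321 for receptor tyrosine kinases, and the part of length was not tested.

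Early-response genes lay on opposite sides in the other direction. AP-1 genes had medians of -0.39 in Label_Enrich and 0.25 in NonLabel_Enrich, and feedback genes -0.54 and 0.25. For Egr1 the mean levels were 68.9 ± 1.54 CPM, 167 ± 3.48 CPM and 138 ± 5.75 CPM in Label_Enrich, NonLabel_Enrich and Label_Input (SD, n = 3). On this relative scale the unlabelled capture was above the input of the labelled cells for this gene, and the labelled capture below it. Btg2 differed, at 3.10 ± 0.403, 9.96 ± 0.615 and 12.9 ± 1.63 CPM.

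Histones, ribosomal proteins, mitochondrially encoded RNAs and small nucleolar RNAs were below the input in both captured groups. Their medians minus Label_Input were -0.74, -0.62, -1.52 and -2.70 in Label_Enrich, and -1.01, -0.73, -0.71 and -2.06 in NonLabel_Enrich. For histones and ribosomal proteins the labelled capture was therefore the nearer to the input, and for mitochondrially encoded and small nucleolar RNAs the farther. Median lengths were 527 bases for histones, 871 for ribosomal proteins and 130.5 for small nucleolar RNAs, and the part of length was not tested here either.

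**Figure D5:**
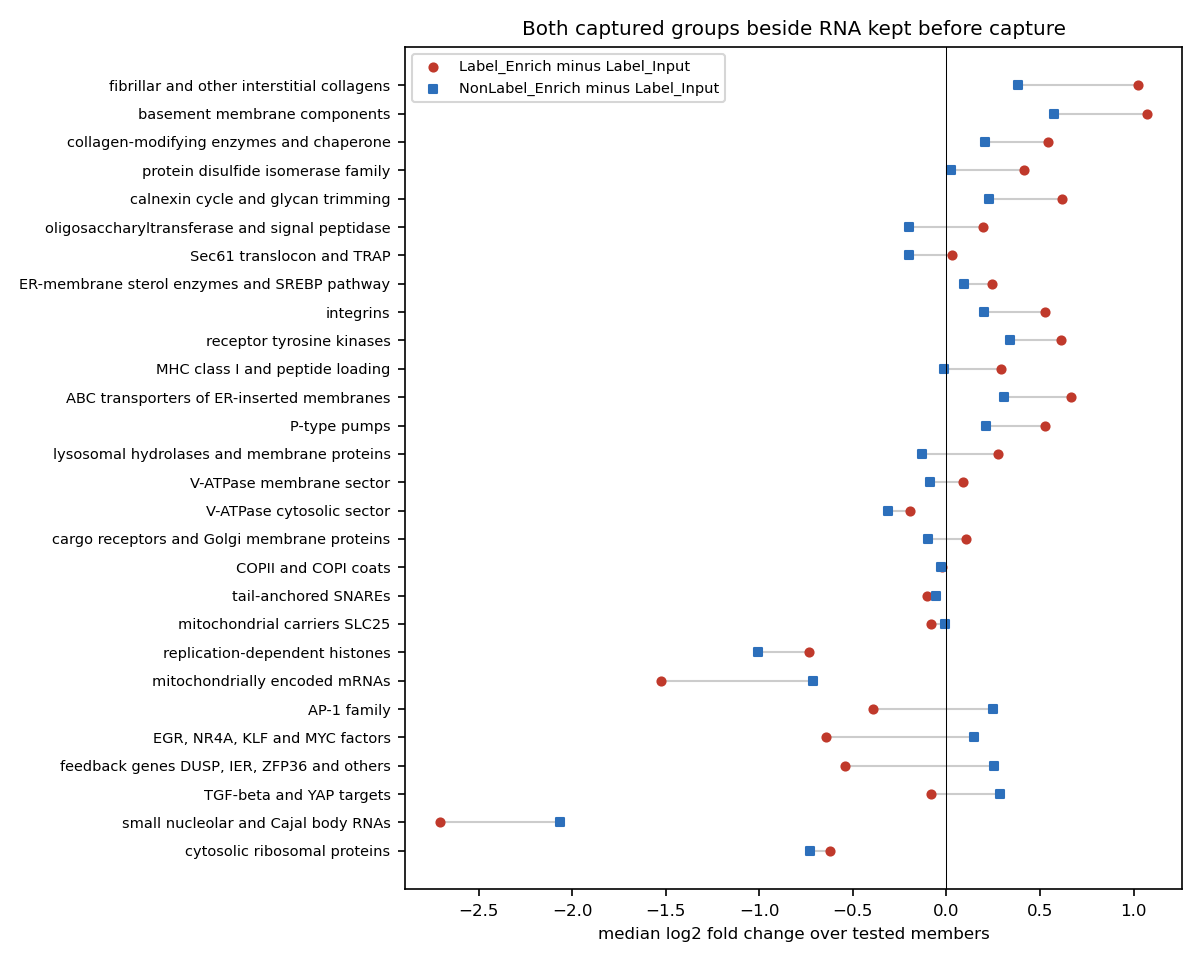
Median log2 fold change over the tested members of each gene list (horizontal axis) for Label_Enrich minus Label_Input (red circles) and NonLabel_Enrich minus Label_Input (blue squares). Interstitial collagens stand at 1.02 and 0.38, and AP-1 genes at -0.39 and 0.25.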

How the data were processed

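RNA sequencing counts of 3 Label_Enrich, 3 NonLabel_Enrich and 3 Label_Input libraries (MC38 12G) were used. The deposited counts are whole numbers per Ensembl gene. The submitters' processing notes list HTSeq 0.7.2, HISAT2 2.1.0, cutadapt 1.18 and DESeq2 1.16.1, and the build GRCm39. For the strand setting, the annotation release and multiply mapped reads the sources used here give nothing. Names, transcripts and proteins came from GENCODE M21 (GRCm38), so the coordinates printed are of that build.

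From the counts, edgeR 4.0.16 (R 4.3.3) was fitted to all 9 libraries in 1 model with filterByExpr, TMM factors and the quasi-likelihood test. Genes with a Benjamini-Hochberg adjusted p under 0.05 over 11676 genes were called, and only such genes are said to have risen or fallen. The SE is the absolute log2 fold change over the square root of F. Named genes were the 12 largest called changes in each direction (mean of at least 10 CPM, groups apart, conventional symbol), the 4 members with the lowest p in a list (fewer where fewer were called), its most abundant member not called, features over 2% of counts, and a panel. Groups apart were thus required of the largest changes and favoured by the choice of the lowest p, so they add no evidence for those genes. The classes, the members and the gene lists were chosen with earlier results of these data known, so no list was given a test. Labels do not say that replicates are separate cultures, so the p-values speak only of the spread among these libraries, which may be technical. Alternatives covered other scalings, filters, hydropathy thresholds, the 3G counts, left-out libraries, a replicate block and DESeq2 1.42.0. On simulated counts of 11505 genes the fit recovered 81.0% of changes of 0.5 (log2) and 100.0% of changes of 1, with 7 false among 188 calls. The changed genes, 100 of each size, were drawn only from genes with higher counts, so these shares do not hold for low genes. Some genes and sequences are not reported here.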

Additional observations from a re-analysis of the deposited data

How the results depend on the processing

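The counts of 1217 genes called higher and 1124 called lower became 1236 and 1109 with RLE factors, 1181 and 1134 with upper-quartile factors, and 1175 and 1173 without the most abundant feature. Without scaling factors they became 5827 and 173, and 97.1% of calls were higher, since the median of all genes moved by 0.317. Without a low-count filter they were 1297 and 760 (63.1% higher), with DESeq2 1073 and 796 (57.4% higher), and in the shallower counts titled 3G 969 and 880. Leaving out 1 captured library gave 951 to 1033 higher and 859 to 996 lower, and 1129 of the 2341 calls end without at least 1 of them. With replicate number as a block the counts were 1244 and 1134. The numbers were not taken to pair the samples, as same-numbered libraries had deviations correlated at 0.008, -0.001 and 0.017. Without scaling factors, small negative log2 fold changes also turned positive, to 0.217 for Actb, 0.089 for Gosr2, 0.147 for Mvd and 0.111 for Sec31a. Some medians moved, by over 0.05 on the log2 scale and, for lists, by more than the SD between pairs of libraries. With thresholds of 1.8 and 1.6, 1 of the 4 protein class medians did (0.18 to 0.13). In the 3G counts 4 of the 76 list medians moved, with a strict low-count filter 4, and without 1 captured library up to 6 (without NonLabel_Enrich replicate 3). In the 3G counts the median of interstitial collagens was 0.50 in place of 0.58, and that of the COPII and COPI coats changed sign, from -0.038 to 0.014. With the strict filter the median of p53 targets was -0.21 in place of -0.12, and that of GPI anchor synthesis 0.23 in place of 0.15. The captured libraries were limited in depth by the most abundant feature, and genes under a few CPM had wide errors. Both groups carried the enzyme, and counts of near-identical copies, of antisense genes and of small RNAs inside host genes are uncertain.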

Other observations

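Further lists of proteins made at the ER varied. Of 43 tested enzymes of ER lipid synthesis 14 were called higher and 1 lower, with a median log2 fold change of 0.18. Of 63 glycosyltransferases, which build sugar chains in the ER and Golgi, 17 were higher and 1 lower (median 0.14). Of 20 plexins, neuropilins, Notch receptors and cadherins, which guide cells by contact, 8 were higher and 0 lower (median 0.23, but 0.098 without Label_Enrich replicate 1 and 0.11 without NonLabel_Enrich replicate 2). Of 26 genes of GPI anchor synthesis 6 were higher and 2 lower (median 0.15), with Pigk among those higher. Of 17 palmitoyltransferases, membrane enzymes that attach palmitate to proteins, 1 was called higher and 3 lower (median 0.065), against 10.4% and 9.63% of all tested genes. By annotated type, 18 of 381 processed pseudogenes were called higher (4.72%) and 1 lower (0.262%), both below the shares of all tested genes. Of 145 features absent from the annotation used here 35 were lower (24.1%) and 5 higher (3.45%).

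Filip1l, which encodes a filamin-interacting protein and was chosen after its values were seen, was high in a single library. It stood at 298 CPM in NonLabel_Enrich replicate 2 and at 11.1 to 12.1 CPM in the other captured libraries, 24.7 times the next highest value. Its log2 fold change of -3.23 became -0.027 without that library (edgeR quasi-likelihood test, adjusted p = 0.908). Over the 4420 genes averaging 10 CPM or more, the next largest such ratio was 1.62.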
